A study of Mus musculus with 40 samples.

Results

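The 10 genes described here, Stra8 and 9 genes that encode parts of meiotic chromosomes, were followed by RNA sequencing in mouse embryonic stem (ES) cells, before and after all-trans retinoic acid (RA). They were chosen by name as Stra8, Rec8, Smc1b, Stag3, Sycp1, Sycp2, Sycp3, Hormad1, Hormad2 and Zcwpw1, out of 23228 gene symbols listed for every library, and all 10 were found. ES cells were wild type or homozygous for GLP 3A, an allele of the histone H3 lysine 9 methyltransferase GLP (gene symbol Ehmt1), both of C57BL/6 (mixed) background. The labels do not say what the allele changes in the protein, nor how many clones were used. Each genotype was sequenced untreated and after 1 uM RA, with 2 libraries in each of the 4 groups. All cells, controls included, had been moved from feeder cells to feeder-free 2i medium. The self-renewal factor LIF was withdrawn when RA was added, so RA and loss of LIF cannot be told apart, and the sources used here do not give the length of treatment. The labels do not state separate cultures for the libraries of a group, and the p-values reflect only how these libraries vary, which may be technical variation.

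STRA8 is a transcription factor that germ cells make in response to RA, and it is needed for entry into meiosis. REC8, SMC1B and STAG3 are subunits of the cohesin rings that hold sister chromatids together in meiosis. SYCP2 and SYCP3 coat the chromosome axes, SYCP1 forms the transverse filaments that join paired axes, HORMAD1 and HORMAD2 bind unpaired axes, and ZCWPW1 reads the histone marks left by PRDM9 at recombination sites. In ES cells many germline genes are kept low by E2F6, MGA and other repressors, with DNA methylation and H3K9 methylation as further layers, and Stra8 is widely used as a marker of the response of ES cells to RA.

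Promoters of 4 members are printed because the results turn on them: Stra8 and Rec8, the members that were higher after RA, and Hormad1 and Hormad2, the members with the highest ratio of GLP 3A to wild-type level in untreated cells. The sequences are from RefSeq in build GRCm38.p6, where all 10 members matched, and cover 250 bases before to 50 bases after the annotated start. Capitals mark matches, on either strand, to AGGTCA (a retinoic acid receptor half-site), CACGTG (an E-box) and TTCCCGCC (an E2F6-type site), of which no 2 overlapped.
Stra8, chr6:34920698-34920997, plus strand: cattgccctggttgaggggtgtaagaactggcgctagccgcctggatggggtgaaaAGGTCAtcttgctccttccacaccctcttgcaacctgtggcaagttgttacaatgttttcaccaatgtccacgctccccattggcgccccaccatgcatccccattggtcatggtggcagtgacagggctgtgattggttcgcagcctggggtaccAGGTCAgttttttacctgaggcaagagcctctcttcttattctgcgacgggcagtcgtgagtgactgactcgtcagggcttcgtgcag
Rec8, chr14:55617916-55618215, plus strand: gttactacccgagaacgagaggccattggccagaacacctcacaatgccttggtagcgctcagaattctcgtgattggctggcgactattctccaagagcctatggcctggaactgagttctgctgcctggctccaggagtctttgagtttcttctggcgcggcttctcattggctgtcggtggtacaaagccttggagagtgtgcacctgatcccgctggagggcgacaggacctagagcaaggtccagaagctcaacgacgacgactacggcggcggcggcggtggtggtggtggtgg
Hormad1, chr3:95559427-95559726, plus strand: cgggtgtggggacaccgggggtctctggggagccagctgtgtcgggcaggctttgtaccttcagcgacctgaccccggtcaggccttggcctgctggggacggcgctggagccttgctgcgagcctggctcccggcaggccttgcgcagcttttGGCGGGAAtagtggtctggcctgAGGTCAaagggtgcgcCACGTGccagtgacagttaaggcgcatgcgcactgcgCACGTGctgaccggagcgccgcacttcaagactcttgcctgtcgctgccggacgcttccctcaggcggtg
Hormad2, chr11:4441033-4441332, minus strand: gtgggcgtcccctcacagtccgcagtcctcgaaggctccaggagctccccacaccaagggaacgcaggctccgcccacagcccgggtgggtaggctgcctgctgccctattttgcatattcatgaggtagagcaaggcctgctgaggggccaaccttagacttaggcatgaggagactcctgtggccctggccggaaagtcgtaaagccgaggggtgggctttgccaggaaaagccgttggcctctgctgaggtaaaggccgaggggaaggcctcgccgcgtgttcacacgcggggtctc

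The Stra8 promoter held 2 matches to AGGTCA, from base -194 to -189 and from -38 to -33 relative to the start. AGGTCA was found in 16.3% of the 32851 mouse promoters of this length, and among the members also in those of Sycp3 and Hormad1. The E-box was found in 7.15% of all promoters and in those of Sycp1, Sycp3, Stag3 and Hormad1. TTCCCGCC was found in 2.19% of all promoters and, among the members, in that of Hormad1, from base -96 to -89 on the minus strand. The promoters printed for Rec8 and Hormad2 held none of the 3. Direct repeats were searched with a looser half-site, RGKTCA, where R is A or G and K is G or T. Repeats spaced by 2 bases (DR2) or 5 bases (DR5) were in 0.268% and 0.0974% of all promoters and in none of the members'. A match describes letters in the window and shows no binding.

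**Figure D1:**
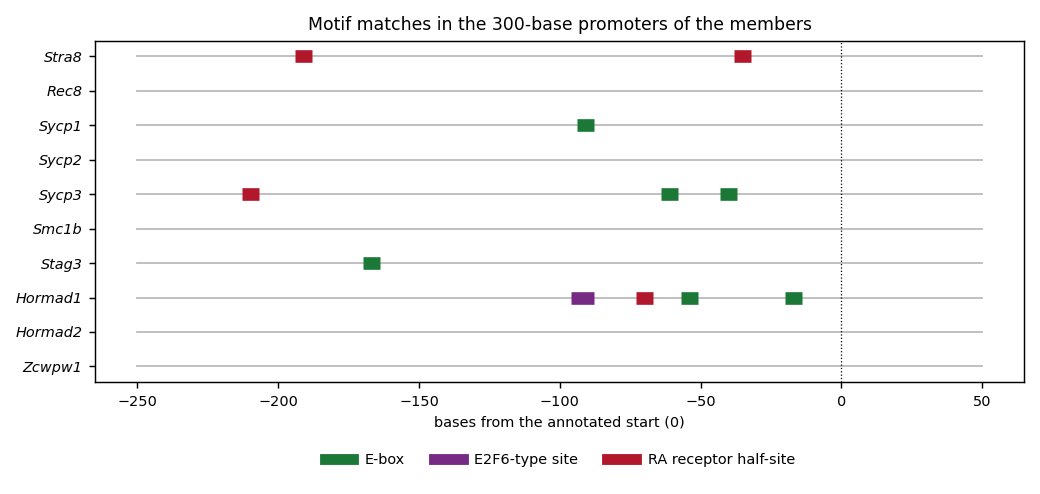
Each grey line is the 300-base promoter of 1 member (RefSeq, the first annotated start where there are 2), and the x axis is the distance in bases from the annotated start. Coloured blocks are motif matches on either strand; Hormad1 holds 4 and Rec8, Sycp2, Smc1b, Hormad2 and Zcwpw1 hold none.

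Levels are RPKM, read densities scaled to transcript length and to the mapped reads of the library, and the first and the second library of a group are always given in that order. Differences are of log2(RPKM + 1), with a moderated standard error (SE), and a gene was called changed where the two-sided limma test had an adjusted p under 0.05 over the 13198 genes that reached 1 RPKM in 2 or more libraries. The scale understates changes of genes near or under 1 RPKM. Estimated relative depth was 0.86 to 1.31 in the first libraries and 0.41 to 0.58 in the second, so that 1 read on a message of 2 kb was worth about 0.021 to 0.068 RPKM, a rough estimate since the files hold no counts. Replicates correlated across tested genes at 0.966 to 0.977, but at 0.935 in GLP 3A with RA. Ehmt1, the gene that carries the allele, was at 18.4 and 17.6 RPKM in wild type without RA, against 14.1 and 14.3 in GLP 3A without RA (log2 difference -0.32 ± 0.07 SE, adjusted p = 0.0334). With RA it was at 24.4 and 23.5 in wild type, against 13 and 13.9 in GLP 3A (-0.79 ± 0.07 SE, adjusted p = 0.0041). The untreated call was lost without any single untreated library, with adjusted p from 0.145 to 0.195. Ehmt2, which encodes the partner methyltransferase G9a, was not called between genotypes without RA (-0.08 ± 0.13 SE, adjusted p = 0.771) or with it (-0.30 ± 0.13 SE, adjusted p = 0.178). Gene levels do not check the 3A label, since reads over the altered bases are not analysed here.

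Of the 10 members, 8 passed the filter, while Sycp2 and Smc1b stayed under 1 RPKM in every library and are described by their levels. Stra8 passed only through the RA groups, Sycp1 only through untreated wild type and Hormad2 only through 3 GLP 3A libraries, so counts over members that passed are descriptions. Stra8 and Rec8 rose with RA in both genotypes, and these were the only members called higher. The other 6 tested members fell with RA in wild type, where 68.5% of all tested genes were called in one direction or the other, 33.7% higher and 34.8% lower. In GLP 3A 5 members fell and Zcwpw1 was not called, where 70.4% of all tested genes were called, 32.3% higher and 38.1% lower. Between genotypes, 1 member was higher and 3 were lower in untreated GLP 3A, against 7.52% and 4.15% of all tested genes (11.7% in either direction). With RA, 3 members were higher and none lower in GLP 3A, against 5.3% and 5.31% of all genes (10.6% in either direction). At an unadjusted p under 0.05 no tested member was lower there either. The 2 libraries of one group did not overlap the 2 of the other for 68% of tested genes between untreated genotypes, 51.3% between genotypes with RA, 85.7% for RA in wild type and 84.8% for RA in GLP 3A. In bulk RNA, fewer cells that express a gene and less RNA per cell cannot be told apart.

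**Figure D2:**
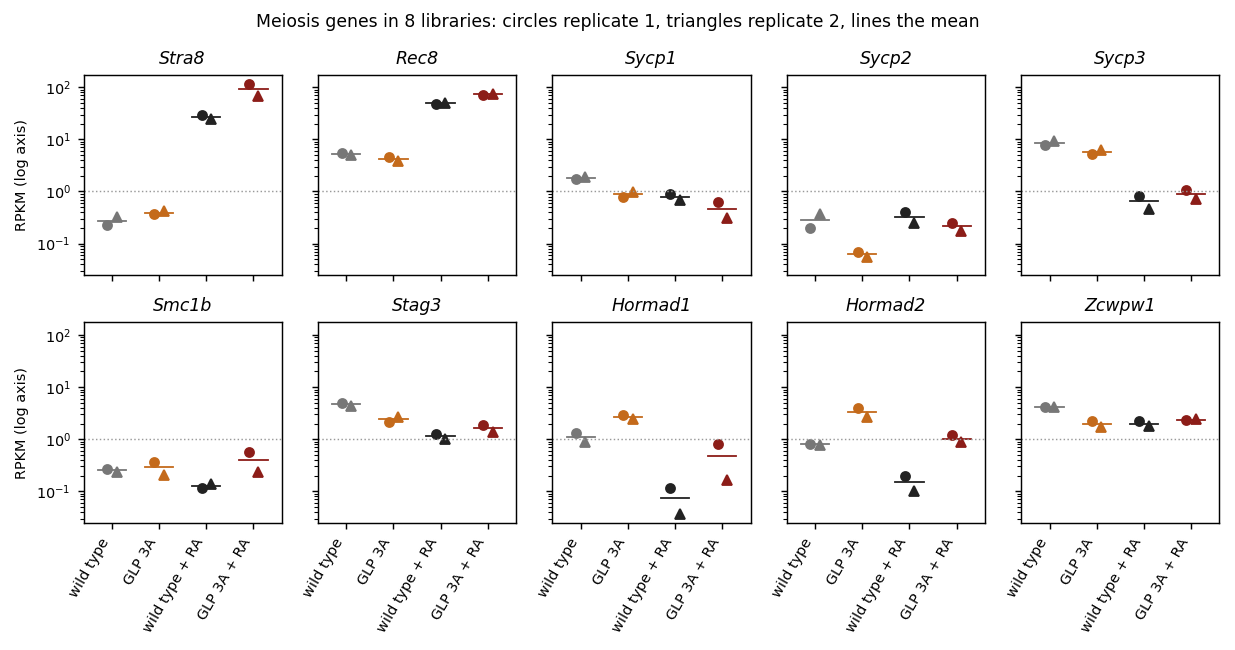
RPKM (y axis, log scale) of the 10 members in the 4 groups (x axis); circles are the first library, triangles the second and short lines the mean of both. The dotted line marks 1 RPKM; Stra8 and Rec8 sit above it in all 4 RA libraries, and Sycp2 and Smc1b sit below it throughout.

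Stra8 was near the floor of these libraries without RA and was the member with the highest mean level in GLP 3A cells with RA. In untreated wild type it was at 0.229 and 0.325 RPKM, and in untreated GLP 3A at 0.364 and 0.417. In the RA libraries it was at 29.3 and 24.3 in wild type, against 117.5 and 69.2 in GLP 3A. No 2 of the 4 groups overlapped, and the GLP 3A libraries with RA differed from each other more than any other pair. In RA-treated wild type 87.5% and 84.6% of all listed genes had a lower RPKM, and in RA-treated GLP 3A 97.1% and 94.9%. The ratio of mean levels with RA to without was 96.6 in wild type (log2 difference 4.44 ± 0.24 SE, adjusted p = 2.2e-05) and 239 in GLP 3A (6.04 ± 0.24 SE, adjusted p = 1.0e-05). Both ratios rest on denominators under 0.5 RPKM, which is a small number of reads.

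With RA, Stra8 was 3.49 times as high in GLP 3A as in wild type (log2 difference 1.72 ± 0.24 SE, adjusted p = 0.0147). That call was lost without the first wild-type RA library (adjusted p = 0.054) or the second (0.0636), and in a fit of the 4 RA libraries alone (0.176). Without RA the difference was 0.12 ± 0.24 SE (adjusted p = 0.813). The test of whether the rise of Stra8 differed between the genotypes gave 1.60 ± 0.34 SE and missed the threshold (adjusted p = 0.0731). It passed without the first GLP 3A RA library (0.0389) or the second (0.00958).

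Among the cohesin subunits, Rec8, the meiotic kleisin that closes the ring, rose with RA in both genotypes and was higher in GLP 3A than in wild type with RA. It was at 5.42 and 5.08 RPKM in wild type without RA, against 4.57 and 3.85 in GLP 3A without RA. After RA its level was 48.8 and 49.0 in wild type, against 71.9 and 74.2 in GLP 3A. The 4 groups did not overlap, and the libraries within a group lay close together. The ratio of means with RA to without was 9.31 in wild type (log2 difference 3.00 ± 0.08 SE, adjusted p = 3.8e-06) and 17.4 in GLP 3A (3.83 ± 0.08 SE, adjusted p = 3.9e-06). Before RA, Rec8 was above 3 RPKM in all 4 libraries, whereas Stra8 was under 0.5 RPKM in all 4.

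With RA, Rec8 was 1.49 times as high in GLP 3A as in wild type (0.57 ± 0.08 SE, adjusted p = 0.0172). The call was lost without either untreated wild-type library (adjusted p = 0.0551 and 0.0546), without either wild-type RA library (0.0704 and 0.066) and in a fit of the RA libraries alone (0.158). Without RA, Rec8 was 0.802 times as high in GLP 3A (-0.27 ± 0.08 SE, adjusted p = 0.0974). Its RA response differed between genotypes by 0.84 ± 0.12 SE (adjusted p = 0.0363), where 1.8% of all genes were called for such a difference, 0.561% higher and 1.24% lower. No other member passed that test. It was lost without either library of untreated wild type (0.169 and 0.17), untreated GLP 3A (0.117 and 0.137) or wild type with RA (0.0887 and 0.1).

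Stag3, the meiosis-specific STAG subunit, went down where Rec8 went up. It was at 4.95 and 4.4 RPKM in wild type without RA, against 2.15 and 2.67 in GLP 3A without RA. With RA it was at 1.26 and 1.03 in wild type, against 1.84 and 1.39 in GLP 3A. All 4 untreated libraries lay above all 4 with RA, and the order of the genotypes was opposite without and with RA. In untreated cells GLP 3A was 0.515 times wild type (-0.74 ± 0.14 SE, adjusted p = 0.0229), a call lost without any single untreated library (0.155 and 0.109 without the first and the second of wild type, 0.152 and 0.0865 of GLP 3A). With RA the genotypes were not called different (0.28 ± 0.14 SE, adjusted p = 0.225).

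With RA, Stag3 fell by 1.40 on the log2 scale in wild type (SE 0.14, adjusted p = 2.1e-04). In GLP 3A it fell by 0.38 (SE 0.14, adjusted p = 0.0432), a call that held without the first GLP 3A RA library and was lost without each of the other 7 (adjusted p from 0.0506 to 0.215). It was also lost with no filter on low values (0.0699), with median-of-ratios scaling (0.054) and with the GLP 3A libraries alone (0.0967). The difference between the responses was 1.02 ± 0.19 SE (adjusted p = 0.0599), which passed without the second GLP 3A RA library (0.0297).

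Smc1b, the meiotic SMC1 subunit, stayed low in every group. It was at 0.271 and 0.235 RPKM in wild type without RA, 0.371 and 0.209 in untreated GLP 3A, 0.115 and 0.139 in wild type with RA and 0.57 and 0.232 in GLP 3A with RA. The RA-treated wild-type libraries were the lowest and did not overlap any other group. In a fit with no filter on low values it was called in none of the 5 comparisons, with adjusted p from 0.205 to 0.964. On the per-kilobase scale, the mean levels of the 3 cohesin subunit genes in RA-treated wild type were 48.9 RPKM for Rec8, 1.14 for Stag3 and 0.127 for Smc1b.

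**Figure D3:**
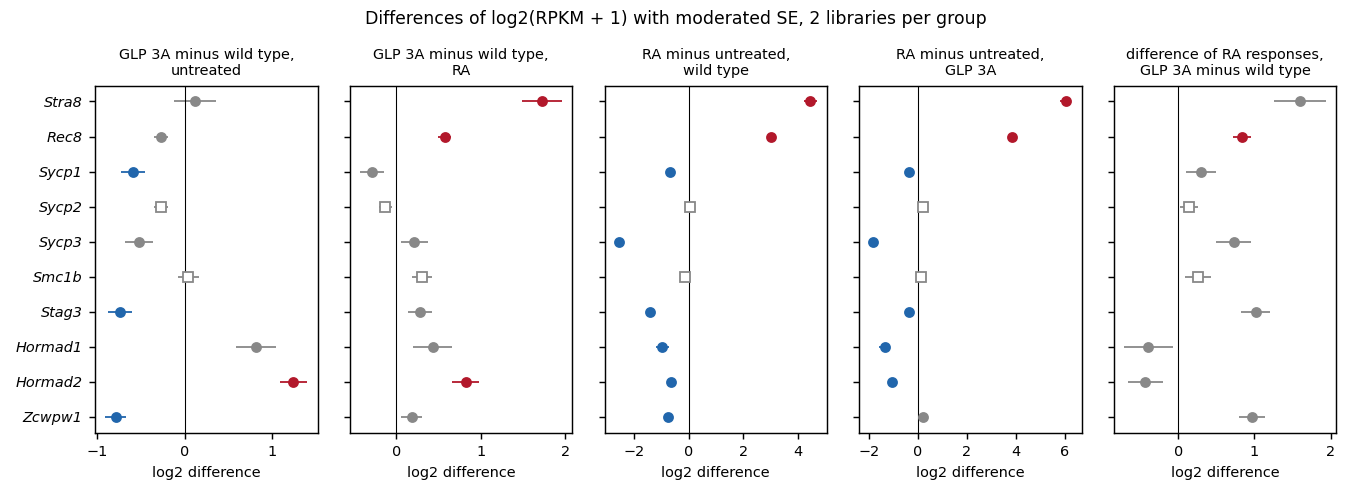
Differences of log2(RPKM + 1) on the x axis for the 10 members in the 5 comparisons, each panel with its own scale; points are estimates and bars 1 moderated SE. Red and blue points were called higher and lower, grey points were not called, and open squares are Sycp2 and Smc1b from the fit with no filter.

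The 3 genes of the synaptonemal complex lay far apart in level in untreated cells, and with RA all 3 had means under 1 RPKM. Sycp3 and Sycp1 fell with RA while Sycp2 stayed under the filter. Sycp3, an axis protein often used to stain meiotic chromosomes, was the highest of the 3 in untreated cells, at 7.93 and 9.32 RPKM in wild type and 5.24 and 6.2 in GLP 3A. In the RA libraries it was at 0.829 and 0.466 in wild type, against 1.08 and 0.717 in GLP 3A. Untreated and RA-treated libraries did not overlap in either genotype, and the genotypes overlapped with RA but not without.

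The ratio of mean untreated to mean RA-treated Sycp3 levels was 13.3 in wild type (log2 difference -2.55 ± 0.16 SE, adjusted p = 4.3e-05) and 6.36 in GLP 3A (-1.83 ± 0.16 SE, adjusted p = 1.5e-04). The difference between these responses was not called (0.73 ± 0.23 SE, adjusted p = 0.159). Between untreated genotypes the value was -0.52 ± 0.16 SE (adjusted p = 0.0972), which passed in a fit of the untreated libraries alone (0.0465). The files place Sycp3 and Chpt1 at one locus, chr10:87922331-87966715 in build mm9, and the sources used here do not say how reads there were assigned. Chpt1, a phospholipid enzyme gene, was at 7.4 and 7.77 RPKM in wild type without RA and at 6.18 and 8.34 with RA, so these groups overlapped where those of Sycp3 did not. In GLP 3A it was at 9.13 and 9.74 without RA and lower with RA, at 7.24 and 6.68.

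Sycp1, the transverse filament gene, was above 1 RPKM only in untreated wild type, at 1.76 and 1.93. It was at 0.8 and 0.985 in untreated GLP 3A, at 0.877 and 0.694 in wild type with RA and at 0.621 and 0.306 in GLP 3A with RA. The untreated wild-type libraries stood above the other 6. With RA, Sycp1 fell by 0.67 in wild type (SE 0.14, adjusted p = 0.00548).

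In untreated GLP 3A Sycp1 was 0.483 times wild type (-0.59 ± 0.14 SE, adjusted p = 0.0471). That value was close to the threshold and was lost with a pseudocount of 0.1 (-0.98, adjusted p = 0.101), with no filter (0.0543), with the replicate number as a block (0.0536) and without any one of 6 libraries. Those were the untreated libraries, wild type (0.187 and 0.236) and GLP 3A (0.234 and 0.158), and the wild-type RA libraries (0.0623 and 0.0633). The fall with RA in GLP 3A (-0.38 ± 0.14 SE, adjusted p = 0.0492) held without the first GLP 3A RA library and was lost without each of the other 7, with adjusted p from 0.0605 to 0.205. It was also lost with no filter (0.0505), median-of-ratios scaling (0.0576), the replicate block (0.0577) and the GLP 3A libraries alone (0.108).

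Sycp2, the other axis protein gene, stayed under 0.5 RPKM in all libraries. It was at 0.202 and 0.367 in wild type without RA, against 0.0694 and 0.0552 in GLP 3A without RA, the latter near the value of a few reads. After RA its level was 0.408 and 0.252 in wild type, against 0.254 and 0.178 in GLP 3A. The untreated GLP 3A libraries were the lowest of the 8. With no filter on low values no comparison called it, and the untreated genotype value was -0.27 ± 0.08 SE (adjusted p = 0.125).

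Of the 2 HORMA-domain genes, Hormad2 was called higher in GLP 3A without and with RA and Hormad1 in neither, and both fell with RA. Hormad2 was at 0.822 and 0.772 RPKM in wild type without RA, against 3.9 and 2.72 in GLP 3A without RA. With RA it was at 0.195 and 0.102 in wild type, against 1.19 and 0.87 in GLP 3A. The genotypes did not overlap without or with RA, and RA-treated GLP 3A lay just above untreated wild type. In untreated GLP 3A Hormad2 was at 4.16 times its wild-type level (log2 difference 1.25 ± 0.16 SE, adjusted p = 0.008), a call lost without the first untreated wild-type library (0.0688) or the second (0.0773). Since Hormad2 passed the filter on low values only through 3 GLP 3A libraries, a difference between genotypes was partly built into its being tested. With no filter it was also called, without RA (adjusted p = 0.0121) and with RA (0.0413).

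With RA, Hormad2 was 6.93 times as high in GLP 3A as in wild type (0.82 ± 0.16 SE, adjusted p = 0.0312), over a wild-type level of a few reads. This call held without the second GLP 3A RA library and was lost without each of the other 7 (adjusted p from 0.051 to 0.113) and with the RA libraries alone (0.181). With RA, Hormad2 fell by 0.65 in wild type (SE 0.16, adjusted p = 0.0112) and fell by 1.08 in GLP 3A (SE 0.16, adjusted p = 0.00118). The ratio of mean untreated to mean RA-treated levels had the opposite order, 5.37 in wild type and 3.22 in GLP 3A. The wild-type fall was lost without the first untreated library (0.0579) or the second RA library (0.0538). Hormad2 lies on chromosome 11 (4246385 to 4341085, mm9), where the median genotype difference over 1114 tested genes was 0.24 without RA and 0.24 with RA. On the other chromosomes that hold members these medians were between -0.05 and 0.05. The part of the chromosome-wide shift in the Hormad2 differences of 1.25 and 0.82 was not tested. Nor was its part in genes of the other lists, which were not sorted by chromosome here.

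Hormad1 was at 1.34 and 0.892 RPKM in wild type without RA, against 2.97 and 2.49 in GLP 3A without RA. In the RA libraries it was at 0.114 and 0.037 in wild type, against 0.802 and 0.168 in GLP 3A. The genotypes did not overlap in either condition, but the RA levels rest on few reads and the GLP 3A libraries with RA lay far apart. Hormad1 was 2.44 times as high in untreated GLP 3A, which was not called (0.82 ± 0.23 SE, adjusted p = 0.0665). It passed with the replicate block (0.0267) and with the untreated libraries alone (0.0257). It also passed without either GLP 3A RA library. Those libraries are outside this comparison, and the estimate stayed at 0.82.

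With RA the Hormad1 genotype difference was 0.43 ± 0.23 SE (adjusted p = 0.256), which passed without the second GLP 3A RA library (0.0411). RA treatment was followed by lower Hormad1 levels, which fell by 0.97 in wild type (SE 0.23, adjusted p = 0.00857) and fell by 1.36 in GLP 3A (SE 0.23, adjusted p = 0.00193). As a ratio of mean untreated to mean RA-treated levels the order was opposite, 14.8 in wild type and 5.63 in GLP 3A. The wild-type fall was lost without the first untreated wild-type library (0.0568). The RA responses of the genotypes were not called different for Hormad1 (-0.39 ± 0.32 SE, adjusted p = 0.534) or Hormad2 (-0.43 ± 0.23 SE, adjusted p = 0.338), and with a pseudocount of 0.1 both values changed sign, to 0.29 and 0.29.

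Zcwpw1, the histone mark reader, was highest in untreated wild type, at 4.12 and 4.08 RPKM. It was at 2.2 and 1.7 in untreated GLP 3A, at 2.22 and 1.78 in wild type with RA and at 2.29 and 2.47 in GLP 3A with RA. Untreated wild type stood apart from the other 3 groups, which lay within 1 RPKM of each other. In untreated GLP 3A it was 0.476 times wild type (-0.79 ± 0.12 SE, adjusted p = 0.0129), a call lost without any one untreated library (0.1 and 0.0999 for wild type, 0.0517 and 0.0935 for GLP 3A). After RA it fell by 0.77 in wild type (SE 0.12, adjusted p = 0.00171). In GLP 3A the RA value was 0.20 ± 0.12 SE and was not called (adjusted p = 0.19).

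With RA the Zcwpw1 genotypes were not called different (0.18 ± 0.12 SE, adjusted p = 0.389). The difference between the RA responses was 0.97 ± 0.17 SE, just over the threshold (adjusted p = 0.054) and under it without the second GLP 3A RA library (0.0489). The files place Zcwpw1 with Pilra, an immune receptor gene, at one locus on chromosome 5, and Pilra stayed between 0 and 0.136 RPKM.

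By the rule that took the 5 genes with the highest correlation to Stra8 over the 8 libraries, the nearest patterns were those of Abca3 (Pearson r = 0.998), Herpud2 (0.998), Ankrd1 (0.997), Pld2 (0.997) and Spon2 (0.997). These points fall into an untreated and an RA cluster, and the values describe the shape of the pattern only. Spon2 was at 3.41 and 3.29 RPKM in wild type with RA and at 6.11 and 4.31 in GLP 3A with RA, against 0.194 to 0.297 in the 4 untreated libraries. For the 4 other members called between untreated genotypes, up to 3 genes each are given. The nearest to Hormad2 were Tnnc2 (0.992), Mcm8 (0.990) and Hmha1 (0.988), and the nearest to Stag3 were Adck3 (0.983), Ube2l6 (0.982) and Tarm1 (0.979). Mcm8, which encodes a helicase of homologous recombination, was at 6.47 and 6 RPKM in wild type without RA, 10.5 and 10 in untreated GLP 3A, 4.91 and 4.32 in wild type with RA and 7.08 and 6.16 in GLP 3A with RA. The nearest to Sycp1 were Mapkapk3 (0.981) and Agfg1 (0.978), and the nearest to Zcwpw1 were Osbpl10 (0.980), Ubox5 (0.964) and Cacnb1 (0.940).

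Other genes of meiotic chromosomes went down with RA, as 6 of the members did in wild type. Of 12 tested genes of meiotic recombination (20 in the files), 9 fell with RA in wild type and 10 in GLP 3A and none rose. Of all tested genes, 34.8% were called lower in wild type and 38.1% in GLP 3A. Median log2 differences of the list were -0.92 and -0.94, against -0.03 and -0.07 over all tested genes. Hsf2bp, which encodes a partner of BRCA2 in meiotic recombination, was at 8.92 and 9.26 RPKM in wild type without RA, against 16.8 and 17.7 in GLP 3A without RA. After RA its level was 0.502 and 0.511 in wild type, against 1.62 and 0.985 in GLP 3A. With RA it fell by 2.74 in wild type (adjusted p = 1.8e-05) and fell by 3.00 in GLP 3A (adjusted p = 1.5e-05).

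In untreated GLP 3A 2 recombination genes were higher and none lower, against 7.52% and 4.15% of all tested genes. The list median was 0.13, against 0.04 over all tested genes. The 2 were Hsf2bp (0.85 ± 0.14 SE, adjusted p = 0.0142) and Spata22 (0.94 ± 0.14 SE, adjusted p = 0.0128), a gene needed for meiotic strand exchange. Spata22 passed the filter only through the untreated GLP 3A libraries. Its call held with no filter (0.0123) and was lost with a pseudocount of 0.1 (2.08, adjusted p = 0.0563). Without any one untreated library the count was 0, or 1 without the first GLP 3A library, and without either GLP 3A RA library or with the replicate block it was 4. With RA, Hsf2bp was also higher in GLP 3A (0.60 ± 0.14 SE, adjusted p = 0.0446), a call that held without the second GLP 3A RA library and was lost without each of the other 7 (adjusted p from 0.0655 to 0.131), with no filter (0.0741) and with the RA libraries alone (0.246). Dmc1, the meiotic recombinase, was not called (0.90 ± 0.23 SE without RA, adjusted p = 0.0566, and 0.86 ± 0.23 SE with RA, adjusted p = 0.0666). Without RA it passed when either GLP 3A RA library was left out, though these are outside that comparison and the estimate stayed at 0.90. With RA it passed without the second GLP 3A RA library, at 1.11. Dmc1 was at 2.58 and 1.68 RPKM in wild type without RA, against 4.62 and 4.93 in GLP 3A without RA.

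Of 5 tested genes of the synaptonemal complex and axis besides the members, 3 fell with RA in each genotype and none rose. Of all tested genes, 34.8% fell in wild type and 38.1% in GLP 3A. With RA, Syce2, which encodes a central element protein, fell by 1.47 in wild type (adjusted p = 1.2e-04) and fell by 1.67 in GLP 3A (adjusted p = 7.1e-05). Syce3, another central element gene, was at 1.44 and 1.31 RPKM in wild type without RA, against 0.642 and 0.5 in GLP 3A without RA (-0.60 ± 0.12 SE, adjusted p = 0.0282). It was the only one of the 5 called between untreated genotypes, where 11.7% of all tested genes were called. Syce3 passed the filter only through the untreated wild-type libraries. The call held with no filter (0.0176) and was lost without any single untreated library (adjusted p from 0.114 to 0.178) and with a pseudocount of 0.1 (-1.14, adjusted p = 0.0937). With RA none was called between genotypes by limma, and none had an unadjusted p under 0.05.

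Of 4 tested genes of meiotic entry besides Stra8, 1 rose and 2 fell with RA in wild type, and 1 rose and 1 fell in GLP 3A. Of all tested genes, 33.7% rose and 34.8% fell in wild type, and 32.3% rose and 38.1% fell in GLP 3A. Gm1564 (Meioc), which encodes a meiotic partner of YTHDC2, rose by 1.13 in wild type (SE 0.16, adjusted p = 0.001) and by 1.54 in GLP 3A (SE 0.16, adjusted p = 2.6e-04). Ythdc2, an RNA helicase gene of the same pathway, fell by 0.86 in wild type (adjusted p = 2.9e-04) and fell by 0.70 in GLP 3A (adjusted p = 6.3e-04). No gene of this list was called between genotypes by limma; at an unadjusted p under 0.05, 1 was lower without RA and 2 were higher with RA. Dmrt1, which encodes a regulator of Stra8 in germ cells, was at 2.7 and 1.44 RPKM in wild type with RA and at 12.3 and 4.78 in GLP 3A with RA (1.54 ± 0.39 SE, adjusted p = 0.0564). Its GLP 3A libraries with RA lay apart, and without the second of them the difference was 2.14.

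Of all tested genes, 34.8% fell and 33.7% rose with RA in wild type, and 38.1% fell and 32.3% rose in GLP 3A. Between untreated genotypes 11.7% were called. All 15 genes of somatic cohesin and its regulators were tested, and 10 fell and 1 rose with RA in each genotype. In wild type 7 fell and none rose without the first untreated library. Esco2, which encodes an acetyltransferase that locks cohesin, fell by 2.36 in wild type (adjusted p = 7.9e-06) and fell by 2.46 in GLP 3A (adjusted p = 8.0e-06). Stag1, the somatic counterpart of Stag3, was at 18.3 and 17.4 RPKM in wild type without RA, against 12.3 and 13 in GLP 3A without RA (-0.46 ± 0.07 SE, adjusted p = 0.0125), the only one of the 15 called between untreated genotypes. That call was lost without any single untreated library (0.0851 to 0.109), and with RA none of the 15 was called by limma, with 2 higher and 4 lower at an unadjusted p under 0.05.

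Of 21 genes for repressors of germline genes, 4 rose and 13 fell with RA in wild type, and 2 rose and 15 fell in GLP 3A. Of all tested genes, 33.7% rose and 34.8% fell in wild type, and 32.3% rose and 38.1% fell in GLP 3A. Between untreated genotypes 7.52% were higher and 4.15% lower in GLP 3A. There 2 of the 21 were higher, Dnmt3b (1.20 ± 0.15 SE, adjusted p = 0.00733), a DNA methyltransferase gene, and Mga (0.31 ± 0.07 SE, adjusted p = 0.0439). Of the 21, 1 was lower, Ehmt1 itself. Without any single untreated library the count was 0, and Mga was also lost without the first (0.0615) or the second (0.0608) wild-type RA library, with no filter (0.0507), with median-of-ratios scaling (0.068) and with the replicate block (0.0543). Dnmt3b was at 52 and 47.9 RPKM in wild type without RA, against 120.4 and 112.5 in GLP 3A without RA. With RA Ehmt1 alone was called among the 21, lower in GLP 3A, where 10.6% of all tested genes were called. At an unadjusted p under 0.05, 6 were lower and 0 higher there, with a median of -0.21 against -0.01 over all tested genes. The count rose to 2 without the first and to 3 without the second GLP 3A RA library, all lower.

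Most genes of the RA response besides Stra8 rose in both genotypes, and none was called between them. Of 10 tested, 8 rose and 1 fell in each genotype, with medians of 4.85 and 4.53. Of all tested genes, 33.7% rose and 34.8% fell in wild type, and 32.3% rose and 38.1% fell in GLP 3A. Cyp26a1, the RA-degrading enzyme gene, was at 218.0 and 125.4 RPKM in wild type with RA and at 184.6 and 125.7 in GLP 3A with RA, so the genotypes overlapped where those of Stra8 did not. None of the 10 was called between genotypes with RA by limma, with 1 higher and 1 lower at an unadjusted p under 0.05 and a median of -0.12 against -0.01 over all tested genes. Without the first GLP 3A RA library 1 was called higher, and without the second 1 higher and 1 lower.

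**Figure D4:**
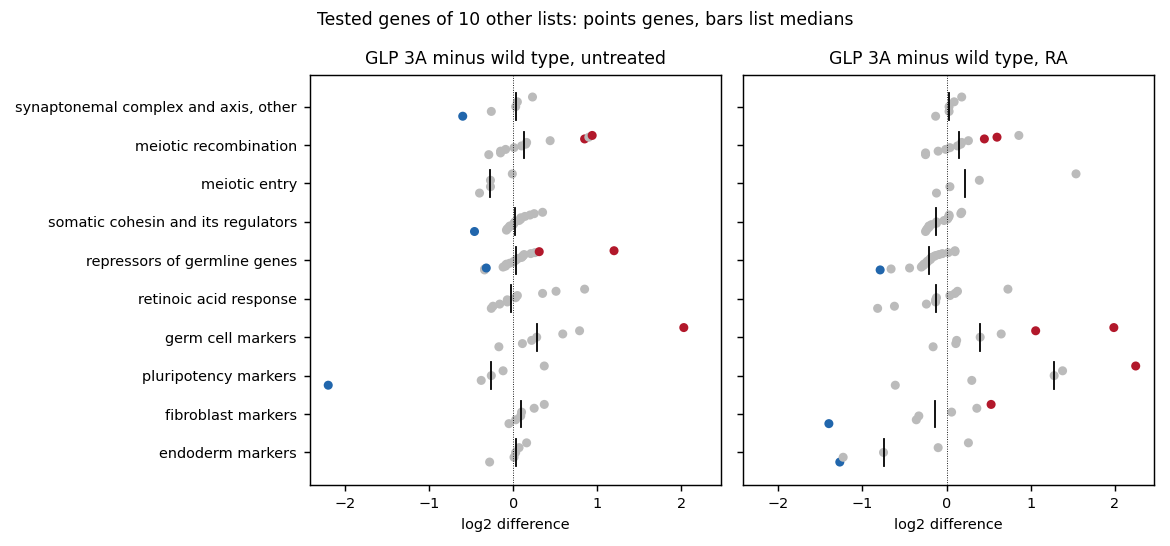
Log2(RPKM + 1) differences between genotypes (x axis) without RA at left and with RA at right for the tested genes of 10 other lists (y axis). Points are genes, red called higher and blue called lower in GLP 3A, and bars are list medians; the medians of the RA response list are -0.02 and -0.12.

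Markers of other cell types moved with the same comparisons, and their part in the member values was not tested. For all marker counts, 33.7% of all tested genes rose and 34.8% fell with RA in wild type. In GLP 3A 32.3% rose and 38.1% fell. Between genotypes 7.52% were higher and 4.15% lower in GLP 3A without RA, and 5.3% and 5.31% with RA. Summed over 8 germ cell markers, RPKM was 81.4 and 80.8 in wild type without RA and 170 and 170 in GLP 3A without RA. With RA the sums were 20.9 and 13.9 in wild type and 36.9 and 22.7 in GLP 3A. In untreated cells the sums rest largely on Dppa3 (means 19.2 in wild type and 81.3 in GLP 3A) and Tfap2c (28.9 and 50.5). The mean of Ddx4 went the other way, from 4.99 in wild type to 4.34 in GLP 3A. Of the 7 tested, 6 fell with RA in each genotype and 1, Ddx4, rose. The rise of Stra8 and Rec8 thus came with lower levels of most of these markers. In untreated GLP 3A 1 of the 7 was higher, Dppa3 (2.03 ± 0.24 SE, adjusted p = 0.0058), a germ cell and ES cell gene. That call was lost without any single untreated library (0.0516 to 0.0614), whereas without either wild-type RA library 3 of the 7 were called higher. At an unadjusted p under 0.05, 4 were higher and 0 lower, with a median of 0.28 against 0.04 over all tested genes. With RA 2 were higher, Dppa3 (1.99 ± 0.24 SE, adjusted p = 0.0108) and Tfap2c (1.06 ± 0.23 SE, adjusted p = 0.038), and the count was 1 without any one of the 7 other libraries and 3 without the second GLP 3A RA library. The Dppa3 value with RA was lost without the first wild-type RA library (0.0509) and with the RA libraries alone (0.169), and that of Tfap2c with no filter (0.0587) and with the RA libraries alone (0.232).

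Dazl, a germ cell gene that failed the filter, was at 0.29 and 0.0822 RPKM in wild type with RA and at 2.78 and 0.646 in GLP 3A with RA. The 5 pluripotency markers had sums of 2249 and 2273 in wild type without RA, against 1821 and 1752 in GLP 3A without RA, and all 5 fell with RA, to 64.7 and 56.9 and to 80.6 and 60.9. Single markers differed more between genotypes than these sums. Zfp42 (Rex1), a marker of naive ES cells, was at 313.7 and 290.1 RPKM in wild type without RA, against 66.4 and 63.2 in GLP 3A without RA (-2.20 ± 0.29 SE, adjusted p = 0.00893), a call lost without any single untreated library (0.0666 to 0.0748). Nanog, a core pluripotency factor gene, was at 1.51 and 0.814 in wild type with RA. In GLP 3A with RA it was at 13.1 and 6.3, above both wild-type libraries. Its RA difference was 2.25 ± 0.31 SE (adjusted p = 0.0146) and was lost without the second wild-type RA library (0.0613) and with the RA libraries alone (0.176). Pou5f1 (1.38 ± 0.74 SE, adjusted p = 0.273) and Esrrb (1.28 ± 0.37 SE, adjusted p = 0.0786) were not called there. Sox2 went the other way and was not called, at 21.4 and 35.4 RPKM in GLP 3A with RA against 38.3 and 47.2 in wild type with RA. At an unadjusted limma p under 0.05, 2 of the 5 were higher and 1 was lower in GLP 3A with RA. The median over the 5 was 1.28 with RA.

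The 8 fibroblast markers summed to 4.01 to 6.07 in untreated libraries and 76.6 to 121 with RA, with 5 of 6 tested rising in each genotype; Lum was at 0 in all 4 untreated libraries. With RA 1 of the 6 was lower in GLP 3A, Pdgfra, at 2.71 and 3.41 RPKM against 10.9 and 8.65 in wild type (-1.40 ± 0.14 SE, adjusted p = 0.00644), a call lost with the RA libraries alone (0.147). Another was higher, the collagen gene Col1a1 (0.53 ± 0.11 SE, adjusted p = 0.0358), which held without the second RA library of either genotype and was lost in the other 6 fits without a library (0.0838 to 0.103). It was also lost with a pseudocount of 0.1 (0.0534), no filter (0.0607) and the RA libraries alone (0.22). The 5 endoderm markers summed to 1.53 to 1.7 without RA, to 124 and 52 in wild type with RA and to 54.6 and 34.4 in GLP 3A with RA, where 5 and 4 rose. With RA 1 of the 5 was lower in GLP 3A, the endoderm factor gene Sox17 (-1.27 ± 0.27 SE, adjusted p = 0.0373). That call held without the second wild-type RA library and was lost without each of the other 7 (0.0549 to 0.0875), with a pseudocount of 0.1 (0.113), no filter (0.0604) and the RA libraries alone (0.225). The endoderm sum was higher in the first than in the second RA library of both genotypes, and with RA the genotypes overlapped. The part of endoderm-like cells in the member values was not tested.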

How the data were processed

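Per the labels' protocols, Trizol RNA was cleared of DNA with DNase and sequenced single-end. It made up 8 of the series' 40 samples, and the other 32, from chromatin work, were not used here. The deposited RPKM values give 1 value for each gene symbol at a locus, per the file headers. Build mm9 and the tools TopHat, Cufflinks, SAMtools and Bowtie 0.12.7 come from the submitters' processing notes. The sources used here do not give the strand, or how reads in overlapping genes were assigned.

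From these values, log2(RPKM + 1) was fitted with limma 3.58.1 in R 4.3.3: 4 group means over 8 libraries, no covariate, an intensity trend, two-sided tests, and Benjamini-Hochberg adjustment over the 13198 genes that reached 1 RPKM in 2 or more libraries. There were 5 comparisons: genotype without and with RA, RA in each genotype, and the difference of the RA responses. The fit was tested on simulated data. An exact permutation test of 2 against 2 libraries cannot go below p = 0.333 and was not used. Low values of short olfactory, vomeronasal and taste receptor genes gave the rough estimates of depth. Whole reads could not be recovered, so no count test was run. Alternatives were a pseudocount of 0.1, no filter, median-of-ratios scaling, the replicate number as a block, only the libraries of a comparison, and leaving out each library.

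The members and the 10 other gene lists were chosen with earlier results of these data known. All members are named; from other lists, up to 4 called and 2 uncalled genes with the largest difference were eligible per comparison, with Ehmt1 and Ehmt2 always. Chpt1 and Pilra were added because they share a member's locus, Dazl and Lum were named after their values were seen, and genes of like pattern were those with the highest Pearson r to Stra8 (5 genes) or to each other member called between untreated genotypes (3 genes), leaving out Gm, Rik, Mir, Snor and identifier names. Rec114, Ankrd31, Meiob, Rnf212 and Meiosin are not analysed here. Some results are not reported here.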

Additional observations from a re-analysis of the deposited data

Results flagged for a closer look

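Rec8 met the test for a difference between the genotypes' RA responses, at 0.84 on the log2(RPKM + 1) scale (limma, adjusted p = 0.0363). Stag1 (0.65, adjusted p = 0.0401), Dnmt3b (-1.38, adjusted p = 0.0401), Pdgfra (-1.36, adjusted p = 0.038) and Zfp42 (2.50, adjusted p = 0.0463) passed the same test. Stag1 was lower in untreated GLP 3A, at 12.3 and 13 RPKM against 18.3 and 17.4, and with RA stood at 16.9 and 17.1 against 15.4 and 14.3. Without a library the Stag1 value passed only without the second GLP 3A RA library, with adjusted p from 0.0336 to 0.206 over the 8 fits, and it was lost with the replicate block (0.0539). The Dnmt3b value passed without the second wild-type RA library or the second GLP 3A RA library and was lost in the other 6 fits, with adjusted p from 0.0241 to 0.195 over all 8. It was also lost with a pseudocount of 0.1 (-1.41, adjusted p = 0.05) and with no filter (0.0569). The Pdgfra and Zfp42 values passed without either GLP 3A RA library and were lost in the other 6 fits (0.0627 to 0.187 and 0.0802 to 0.201). Both were also lost with a pseudocount of 0.1 (0.121 and 0.061) and no filter (0.0556 and 0.0691), and Pdgfra with the replicate block (0.0511).

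For 5 other genes, all libraries of 1 group moved one way and all of the other the opposite way. The test of the difference itself was not passed for them. Only members and other named genes were searched for this, and the share of all tested genes that do so was not computed. Non-overlap of 2 against 2 libraries alone held for 51.3% to 85.7% of tested genes, so these 5 are descriptions. Stag3 was lower in GLP 3A without RA and higher with RA (difference of responses 1.02, adjusted p = 0.0599). Zcwpw1 did the same, and RA lowered it in both wild-type libraries while both GLP 3A libraries with RA lay above the untreated ones (0.97, adjusted p = 0.054). Dmrt1 was lower in GLP 3A without RA and higher with RA (1.95, adjusted p = 0.121). Mga had the opposite order, higher without RA and lower with RA (-0.50, adjusted p = 0.0704). Ehmt1 was higher with RA in both wild-type libraries and lower in both GLP 3A libraries (-0.47, adjusted p = 0.0698).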

How the results depend on the processing

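The counts of called members were 4 and 3 between genotypes without and with RA, 8 and 7 for RA in wild type and GLP 3A, and 1 for the difference of responses. With the RA libraries alone the second of these was 0, and limma then called 15 genes in all, against 1401 in the fit of all 8 libraries. Leaving out each library in turn gave 0 to 5, 0 to 4, 6 to 8, 5 to 7 and 0 to 4 called members, and 206 to 2298, 298 to 2431, 7440 to 9489, 7767 to 9364 and 11 to 1128 called genes of all tested. Where a group is left with 1 library, that library is assumed to vary like the others. The untreated genotype fit with its libraries alone called 3450 genes against 1541, and with a pseudocount of 0.1 the difference of responses had 158 called genes, against 238. Untreated calls were 64.4% higher in GLP 3A as deposited and 54.1% with median-of-ratios scaling. The difference of responses changed sign with a pseudocount of 0.1 for Hormad1 (0.29) and Hormad2 (0.29). The untreated value of Ehmt2 changed sign without one library, over a range of -0.16 to 0.01. The cause of these changes was not tested.

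Replicate numbers were shared across groups, and deviations of same-numbered libraries correlated at 0.17 to 0.36. With 2 numbers that also follow depth, this was not taken as pairing. With the replicate number as a block, the called members numbered 4, 3, 8, 6 and 1. The block ended the Sycp1 and Mga calls without RA (0.0536 and 0.0543), that of Sycp1 for RA in GLP 3A (0.0577) and those of Stag1 and Pdgfra for the difference of responses (0.0539 and 0.0511). Called with it were Hormad1 (0.0267) and Dmc1 (0.0242) without RA, and Dmc1 (0.0323) and Dmrt1 (0.0292) between genotypes with RA. With 2 libraries a group, levels under about 0.1 RPKM rest on few reads.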
